A study of Homo sapiens with 22 samples.

Results

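The nephron lineage transcription factors PAX2, PAX8, LHX1, SALL1, WT1, HNF4A and HNF4G were examined by RNA-seq in RPTEC, a human renal proximal tubule epithelial line immortalized with hTERT. These 7 genes were picked by name and matched to the table of 36859 genes by their Ensembl identifiers, and each had 1 row in it. PAX2, PAX8, SALL1, HNF4G and LHX1 passed the filter on low values, which kept 14585 genes that reached 10 normalized counts in 2 or more libraries. HNF4A and WT1 were listed at 0 in all 22 libraries and were not tested. The 22 libraries formed 11 groups of 2. Those kept in 2% serum were parental WT cells, WT cells given TGF-β (10 ng/ml, 72 h), 2 clones with SETD2 knocked out (KO1, KO2) and a line labelled KO2 rescue. Those kept in 10% serum were 2 rescue lines (Rescue1, Rescue2) and 4 lines of transduced WT, which received eGFP as control or else SOX2, OCT2 or PRRX1. Each KO is 1 clone made with a CRISPR guide in exon 3 of SETD2, so a difference of a KO from WT and a difference of that clone from WT cannot be told apart. Rescue lines are clones from single colonies of KO cells, carry lentiviral FLAG-tagged SETD2 and were selected with blasticidin. Transduced WT lines are bulk populations selected with puromycin, and all lines share hTERT held with G418. The labels do not say whether the 2 replicates of a group came from separate cultures, so p-values measure the spread between these samples, which may be technical.

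Nephron epithelium is built by a small set of DNA-binding proteins. PAX2 and PAX8 are paired-box factors that specify the renal lineage and persist in adult tubule and in renal tumours. LHX1 is a LIM homeodomain factor of the nephric duct and the early nephron, and SALL1 is a zinc finger repressor that keeps nephron progenitors renewing. WT1 is a zinc finger factor of progenitors that stays on in podocytes. HNF4A and its paralog HNF4G are nuclear receptors, and HNF4A is the main driver of the mature proximal tubule program of solute carriers and metabolic enzymes. The samples were used to ask how these factors stood when an epithelial line was given TGF-β, lost SETD2, the enzyme that trimethylates H3K36, regained it, or received a single ectopic factor.

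The 250 bases before a transcription start are shown for PAX8 and PAX2, the paralogs read in every library. They are also shown for the upstream start of HNF4A, the member of this lineage set listed at 0 that defines proximal tubule. A second HNF4A start lies downstream, and which start is used in proximal tubule was not examined here. Sequences are from RefSeq on GRCh38.p14, are written on the strand of the gene from 5′ to 3′, and end at the base before the start. RefSeq promoter entries were matched for PAX8, PAX2, HNF4A and WT1. LHX1, SALL1 and HNF4G had no entry. Capitals mark a match to a searched motif.
PAX8 (chr2:113278922-113279171, minus strand): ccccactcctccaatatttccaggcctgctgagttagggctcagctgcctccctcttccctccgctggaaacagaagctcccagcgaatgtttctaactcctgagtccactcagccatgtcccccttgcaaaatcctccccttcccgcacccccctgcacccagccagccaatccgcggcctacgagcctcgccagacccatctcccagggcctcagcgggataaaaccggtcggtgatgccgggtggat
PAX2 (chr10:100735146-100735395, plus strand): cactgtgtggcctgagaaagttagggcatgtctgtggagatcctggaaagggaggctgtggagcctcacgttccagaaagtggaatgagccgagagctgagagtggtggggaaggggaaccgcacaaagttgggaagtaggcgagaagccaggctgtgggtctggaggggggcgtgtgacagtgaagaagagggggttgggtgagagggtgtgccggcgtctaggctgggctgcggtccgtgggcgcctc
HNF4A (chr20:44355449-44355698, plus strand): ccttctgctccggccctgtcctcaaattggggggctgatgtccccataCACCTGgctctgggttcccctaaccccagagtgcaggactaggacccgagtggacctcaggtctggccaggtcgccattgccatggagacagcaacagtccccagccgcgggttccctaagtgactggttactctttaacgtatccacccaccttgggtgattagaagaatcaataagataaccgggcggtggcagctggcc
Both strands were searched for CACCTG, the E2-box of ZEB and SNAI factors, ATGCAAAT, the octamer bound by OCT2, CATTGT, a SOX motif, and TAATTA, the homeodomain core of PRRX1. These letters were present in 17.5%, 1.63%, 9.29% and 4.35% of 35116 RefSeq promoter windows of this length, and no match overlapped another in the windows shown. The PAX8 window and both PAX2 windows held none of them. The upstream HNF4A window held CACCTG at -202 from the start, and the window of a second HNF4A start held TAATTA at -159, as did 1 of 4 WT1 windows at -33. The GC content was 61.6% in the PAX8 window, 61.6% in the PAX2 window shown and 58.4% in the HNF4A window, where the median of all windows was 58.0%. A match is a description of letters and not of binding.

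SETD2 itself, the edited gene, had 1852 and 2061 normalized counts in WT, 1046 and 1130 in KO1, 1050 and 1052 in KO2, and 9764 to 10445 in Rescue1 and Rescue2. The libraries labelled KO2 rescue held 820 and 834, below KO2 itself, so the mRNA does not match that label, and the line is written here as labelled KO2 rescue. Depth was about 7690000 to 19020000 reads per library, approximated from the smallest step between values. Duplicates differed by a median of 0.0635 to 0.174 on the log2 scale over genes above 1000 normalized counts, and WT was the widest. The WT libraries stood apart in other genes too. COL1A1, a fibrillar collagen chain, was at 11919 in WT replicate 1, 532 in WT replicate 2, and 45007 to 46598 with TGF-β, so members and lists set against WT are also given without each WT library where that changed a call or a count. Of 12 proximal tubule markers, 7 passed the filter, among them GGT1 and MME, the brush border peptidases, whereas LRP2, SLC34A1, SLC5A2, SLC22A6 and SLC22A8 never exceeded 8.47 normalized counts. Of 8 podocyte markers, 7 had a row and 4 passed the filter (PODXL, SYNPO, PTPRO and PLA2R1), and their list summed to 473 to 1179 normalized counts per library. SYNPO was at 436 and 755 in WT and PLA2R1 at 289 and 79.6, whereas NPHS1, which encodes nephrin, peaked at 0.943. In KO1 these markers moved both ways. PLA2R1 was at 615 and 582 there, but SYNPO was at 109 and 230. PTPRO was at 2.52 and 2.78 in KO1 against 10.4 and 16.8 in WT, and PODXL overlapped between KO1 and WT. None of the 6 collecting duct markers in the table passed the filter. In bulk libraries, fewer cells of a type and less RNA per cell cannot be told apart.

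PAX8 was the most abundant member per length of transcript. Divided by the union of its exons, the median over 22 libraries was 689 normalized counts per kb for PAX8, 535 for SALL1, 124 for PAX2, 16.1 for HNF4G and 2.72 for LHX1. The highest library exceeded the lowest 3.04-fold for PAX2. The 5 detected members did not share 1 order of groups, as the plot of levels by library shows. PAX8 and SALL1 were both highest in KO1 and both lowest with TGF-β, PAX2 was highest in the OCT2 line, HNF4G in Rescue1 and LHX1 in the line labelled KO2 rescue. Along each ordered series of 11 groups, neighbouring groups overlapped in 2 of 10 steps for PAX8, 4 for SALL1, and 8 each for PAX2, HNF4G and LHX1. The groups were sorted by their own means, and no such count for other genes is given, so whether these counts are unusual cannot be told.

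**Figure D1:**
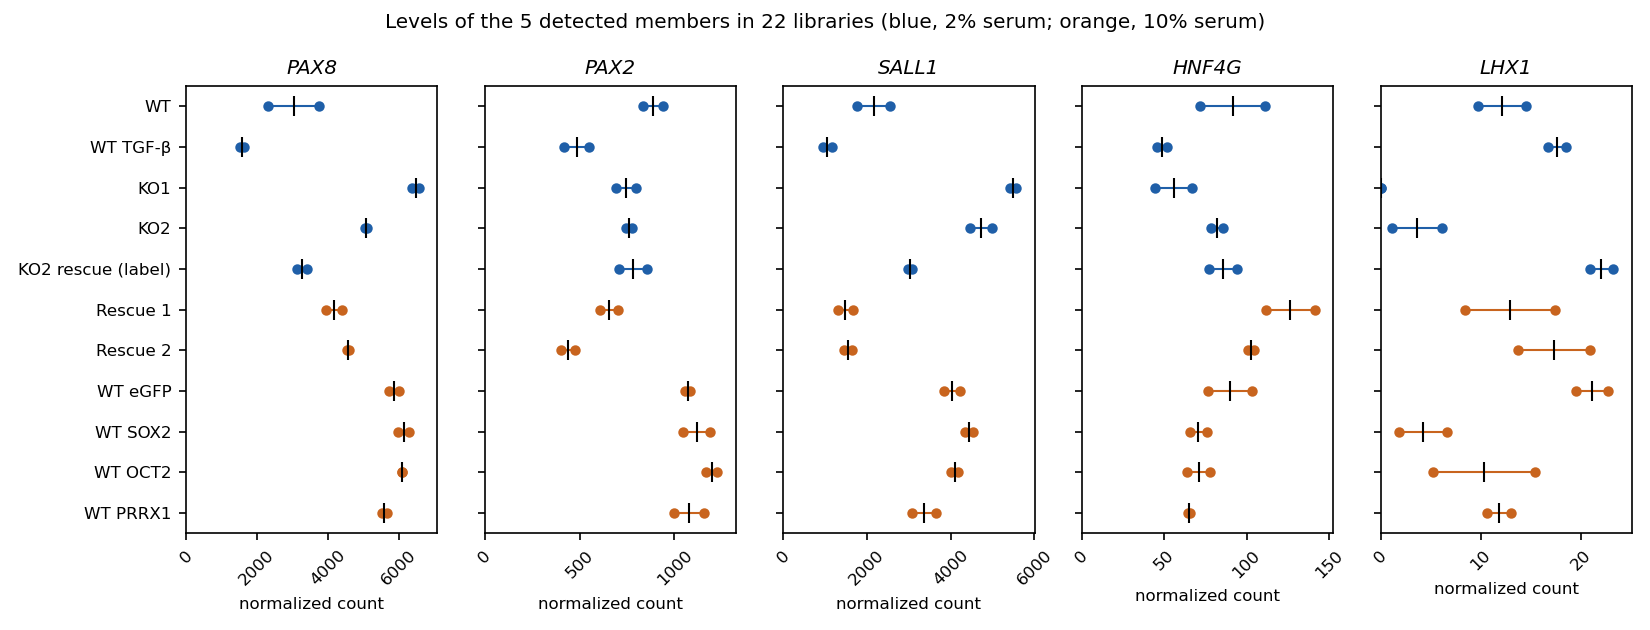
Normalized counts (linear x axis from 0, a scale per gene) of the 5 detected members in each of 22 libraries, with 1 point per library, a line joining the 2 replicates and a black bar at their mean. PAX8 and SALL1 sit lowest with TGF-β and highest in KO1, and LHX1 is listed at 0 in both KO1 libraries.

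PAX8 (ENSG00000125618) is a minus-strand gene of chromosome 2 (113215997 to 113278921, GRCh38), overlapped by the antisense gene PAX8-AS1. PAX8-AS1 was not analysed here, and whether reads were assigned by strand is not given in the sources used here. WT held 2322 and 3743 normalized counts of it, TGF-β-treated cells 1634 and 1535, and the KO lines 6382 and 6561 in KO1, 5056 and 5096 in KO2, and 3401 and 3142 in the line labelled KO2 rescue. In 10% serum they were 4409 and 3953 in Rescue1, 4592 and 4548 in Rescue2, 5715 and 6013 with eGFP, 5988 and 6286 with SOX2, 6092 and 6088 with OCT2, and 5654 and 5512 with PRRX1. Both KO clones, Rescue1, Rescue2 and all 4 transduced lines lay above both WT libraries, and the TGF-β libraries lay below them. The SD of the WT pair was 1005, the largest of any group for PAX8.

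SALL1 (ENSG00000103449) is a minus-strand gene of chromosome 16 (51135982 to 51152334). WT held 1774 and 2555 normalized counts of it and TGF-β-treated cells 1159 and 941. The KO lines held 5564 and 5430 in KO1, 4987 and 4467 in KO2, and 2989 and 3087 in the line labelled KO2 rescue. They were 1659 and 1298 in Rescue1, 1646 and 1444 in Rescue2, 3837 and 4235 with eGFP, 4336 and 4542 with SOX2, 4009 and 4179 with OCT2, and 3657 and 3067 with PRRX1. Unlike PAX8, SALL1 was lower in all 4 rescue libraries than in either WT library. KO1 exceeded every other group without overlap.

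**Figure D2:**
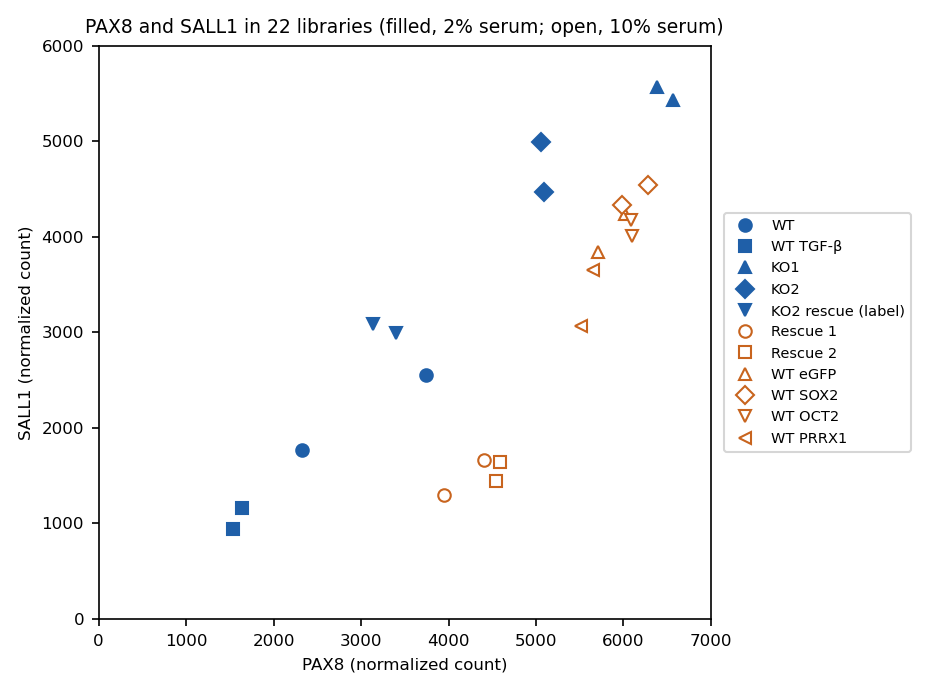
SALL1 against PAX8 in normalized counts (linear axes from 0), 1 point per library, filled for 2% serum and open for 10% serum. The 4 Rescue1 and Rescue2 libraries hold 1298 to 1659 of SALL1 at 3953 to 4592 of PAX8. WT replicate 2 holds 2555 at 3743, and the KO2 libraries hold 4467 and 4987 at 5056 and 5096.

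PAX2 (ENSG00000075891) is a plus-strand gene of chromosome 10 (100735396 to 100829944). WT held 834 and 937 normalized counts and TGF-β-treated cells 552 and 417. The KO lines held 692 and 796 in KO1, 744 and 779 in KO2, and 710 and 854 in the line labelled KO2 rescue. They were 606 and 701 in Rescue1, 474 and 404 in Rescue2, 1055 and 1082 with eGFP, 1045 and 1187 with SOX2, 1165 and 1226 with OCT2, and 996 and 1154 with PRRX1. The TGF-β and Rescue2 libraries were the lowest and overlapped each other, and every transduced library lay above both WT libraries.

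HNF4G (ENSG00000164749) is a plus-strand gene of chromosome 8 (75407914 to 75566834) and had between 44.6 and 141 normalized counts in all libraries. It stood at 71.8 and 111 in WT and at 51.9 and 45.9 after TGF-β. It was at 67.0 and 44.6 in KO1, 78.5 and 85.5 in KO2, 77.4 and 94.4 in the line labelled KO2 rescue, 141 and 112 in Rescue1, and 101 and 105 in Rescue2. Its values were 103 and 76.7 with eGFP, 75.8 and 65.6 with SOX2, 78.1 and 64.0 with OCT2, and 65.7 and 64.5 with PRRX1. Groups overlapped at most steps, and the highest group was Rescue1. HNF4A (ENSG00000101076) spans 44355699 to 44432845 on the plus strand of chromosome 20. It was listed at 0 in every library, so HNF4G was the only HNF4 gene with a reading above 0.

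LHX1 (ENSG00000273706), a plus-strand gene of chromosome 17 (36936785 to 36944612), had between 0 and about 25 approximate reads per library. WT held 9.70 and 14.5 normalized counts and TGF-β-treated cells 16.7 and 18.5. KO2 held 6.17 and 1.15, the line labelled KO2 rescue held 20.8 and 23.2, and both KO1 libraries list it at 0. It had 17.4 and 8.38 in Rescue1, 20.9 and 13.8 in Rescue2, 19.5 and 22.6 with eGFP, 6.62 and 1.88 with SOX2, 15.4 and 5.26 with OCT2, and 13.0 and 10.7 with PRRX1. KO1, KO2 and the SOX2 line were the lowest groups by mean. A count of 3 reads corresponds to 2.46 to 4.72 normalized counts depending on the library, which covers counting error only, so folds of LHX1 rest on counts near that floor. WT1 (ENSG00000184937), a minus-strand gene of chromosome 11 (32387775 to 32435564), was listed at 0 in every library. A listing of 0 in 1 library does not show that a gene is silent there. POLR2A, LARS2, ARCN1 and COPZ2, among genes that cells in general use, were each listed at 0 in 1 library. HNF4A and WT1 were listed at 0 in all 22 libraries, and whether they are silent was not tested. The table also holds 2981 identifiers that the annotation used here does not name, and reads of a member could have been assigned to such an identifier.

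With TGF-β, SALL1 was at 0.49 times its WT level, and PAX2 and PAX8 were lower by nearly as much. The question was how the treatment changed these factors in WT cells in the same serum. SALL1 fell by 1.03 on the log2 scale of normalized count + 1 (SE 0.16, adjusted p = 3.2e-04, limma with Benjamini-Hochberg adjustment) and was the 1 member called, meaning an adjusted p below 0.05 with a log2 change beyond 1. PAX8 fell by 0.90 (SE 0.14, adjusted p = 4.4e-04) and PAX2 by 0.88 (SE 0.15, adjusted p = 6.5e-04), short of the fold required for a call. The log2 change was -0.86 for HNF4G (SE 0.30, adjusted p = 0.063) and 0.53 for LHX1 (SE 0.70, adjusted p = 0.71). Over all genes tested, 7.84% were called, so 1 of 5 tested members stands beside a background of that size. The SALL1 call was lost without WT replicate 2, at -0.76, and without TGF-β replicate 2, at -0.88, and also when only the libraries of both groups were fitted. Without WT replicate 1 PAX8 (-1.24) and HNF4G (-1.17) were called, and without TGF-β replicate 1 PAX2 (-1.08). At a common total for all libraries, PAX2, PAX8 and HNF4G were called lower as well, at -1.12, -1.13 and -1.09, where the median of all genes was -0.20.

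Loss of SETD2 went with more PAX8 and SALL1, the direction opposite to that seen with TGF-β. KO1 against WT gave calls for SALL1, higher by 1.37 (SE 0.16, adjusted p = 5.7e-06), for PAX8, higher by 1.13 (SE 0.14, adjusted p = 1.4e-05), and for LHX1, which was listed at 0 in both KO1 libraries (adjusted p = 6.4e-04). KO2 against WT gave 1 call, for SALL1, higher by 1.15 (SE 0.16, adjusted p = 5.1e-05). PAX8 rose by 0.78 in KO2 (SE 0.14, adjusted p = 6.3e-04), which is under the fold for a call. PAX2 showed log2 changes of -0.25 in KO1 and -0.22 in KO2 (adjusted p = 0.196 and 0.318), and HNF4G of -0.70 and -0.12 (adjusted p = 0.079 and 0.82). LHX1 in KO2 differed from WT by -1.72 (SE 0.70, adjusted p = 0.083). The background was 25.0% of genes called in KO1 and 16.3% in KO2, against 3 and 1 of the 5 tested members. Without WT replicate 1 the PAX8 change in KO1 was 0.79 and the SALL1 change in KO2 was 0.89, neither called, and without WT replicate 2 PAX8 was called in KO2 at 1.13. HNF4G was called in KO1 without WT replicate 1 (-1.01), and LHX1 in KO2 without KO2 replicate 1 (-2.59). A fit of only the compared libraries lost PAX8 in KO1 and SALL1 in KO2. With the same total for every library SALL1 was at 0.96 in KO1 and 0.92 in KO2 and PAX8 at 0.73 in KO1, none of them called, and HNF4G was called in KO1 (-1.10), where the median of all genes was -0.39 and -0.20.

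The KO clones differed from each other in none of the 5 tested members by the call, with 6.97% of all genes called. At an unadjusted p below 0.05 the count was 2, which were PAX8, higher in KO1 by 0.35 (SE 0.14, adjusted p = 0.116), and LHX1, listed at 0 in KO1 (adjusted p = 0.072). The LHX1 difference was called without KO2 replicate 2 (-2.84) and with a pseudocount of 0.5 (-2.73). Set directly against TGF-β-treated WT, KO1 had more SALL1 by 2.40 and more PAX8 by 2.03 (adjusted p = 1.5e-08 and 3.3e-08), and KO2 by 2.18 and 1.68 (adjusted p = 6.3e-08 and 3.7e-07). PAX2 was also higher than with TGF-β, by 0.63 in KO1 and 0.66 in KO2 (adjusted p = 0.0035 and 0.0030). LHX1 was called lower in both clones against TGF-β, by listing at 0 in KO1 and by -2.24 in KO2 (SE 0.70, adjusted p = 0.026), and the KO2 call was lost without either TGF-β library or KO2 replicate 2. In each of these comparisons 3 of 5 tested members were called, beside 22.7% of genes for KO1 and 16.9% for KO2. The 8 stroma and fibroblast markers, all of which passed the filter, summed to 223668 to 236912 normalized counts in KO1, 99765 to 103410 in KO2, 46630 to 48268 with TGF-β and 1228 to 12811 in WT. These sums rest on different genes. Most of the KO sum was DCN, at 234809 and 221606 in KO1, where COL3A1 was listed at 0 and COL1A1 was at 1042 and 815. Most of the TGF-β sum was COL1A1, at 46598 and 45007, with DCN at 1049 and 1083. COL1A1 was also most of the sum in WT replicate 1, at 11919. The part of these markers in the member results was not tested.

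**Figure D3:**
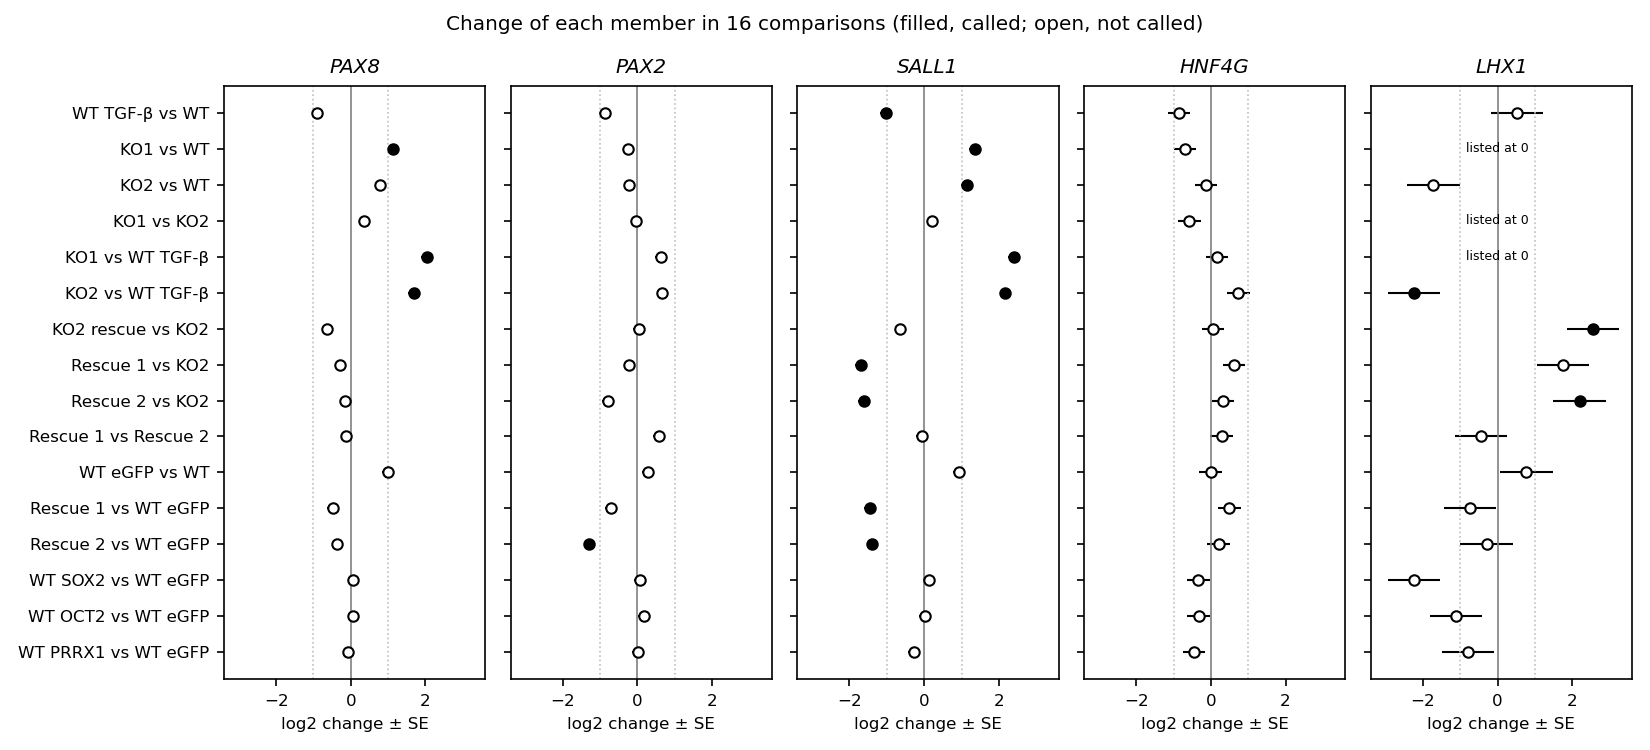
Log2 change (x axis, first group minus second, limma fit on log2(normalized count + 1), bars are SE) of 5 members in 16 comparisons, filled where called and open where not, with dotted lines at -1 and 1. SALL1 is called in 9 comparisons and HNF4G in 0, and LHX1 is marked where KO1 lists it at 0.

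In the SETD2 rescue lines SALL1 was far lower than in the KO, whereas the PAX8 difference from KO2 did not pass the test. SALL1 fell by 1.68 in Rescue1 and by 1.61 in Rescue2 against KO2 (SE 0.16 for both, adjusted p = 1.4e-06 and 2.2e-06). PAX8 differed from KO2 by -0.28 and -0.15 (SE 0.14, adjusted p = 0.160 and 0.48), a direction that turned with the same total for every library, at 0.0026 and 0.17, where the median of all genes was 0.23 and 0.28. PAX2 fell by 0.80 in Rescue2 (SE 0.15, adjusted p = 7.8e-04) and showed -0.22 in Rescue1 (adjusted p = 0.288), which turned to 0.060 at the same total. LHX1 was higher by 2.20 in Rescue2 (SE 0.70, adjusted p = 0.029), a call lost without KO2 replicate 2 or without either Rescue2 library, and differed by 1.74 in Rescue1 (adjusted p = 0.076), where it was called without KO2 replicate 1 (2.61). Of the 5 tested members 1 was called in Rescue1 and 2 in Rescue2, beside 16.1% and 15.3% of genes. Rescue lines were grown in 10% serum and KO2 in 2%, and only the rescue lines were transduced, selected with blasticidin and picked again as clones. Serum, these steps and SETD2 cannot be told apart here. The sources differ on which KO clone was the parent, and with KO1 in place of KO2 SALL1 was at -1.90 and -1.83. PAX8 then passed the test as well, at -0.63 and -0.50 (adjusted p = 0.0026 and 0.012), under the fold for a call. HNF4G differed from KO2 by 0.61 in Rescue1 and 0.32 in Rescue2 (adjusted p = 0.144 and 0.47), and from KO1 by 1.19, a call, and 0.90 (adjusted p = 0.0055 and 0.027). The stroma and fibroblast markers summed to 2171 and 2348 in the Rescue1 libraries and 1409 and 1549 in those of Rescue2, against 99765 and 103410 in KO2. Most of the KO2 sum was DCN, at 98373 and 94978, which was at 611 and 578 in Rescue1. No other marker of that list was called in Rescue1 against KO2. The part of these markers in the member differences was not tested.

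Against the eGFP line, which shares their serum, both rescue lines were again low in SALL1. The eGFP line is a bulk population of WT selected with puromycin, and the rescue lines are blasticidin-selected clones from a KO. Parent, clone, drug and SETD2 level cannot be told apart here. SALL1 fell by 1.46 in Rescue1 and by 1.39 in Rescue2 (SE 0.16, adjusted p = 8.6e-06 and 1.4e-05). PAX2 fell by 1.29 in Rescue2 (SE 0.15, adjusted p = 1.5e-05), a call, and by 0.71 in Rescue1 (adjusted p = 0.0023), which was short of the fold. PAX8 fell by 0.49 in Rescue1 (adjusted p = 0.020) and differed by -0.36 in Rescue2 (adjusted p = 0.085). One member of 5 was called in Rescue1 and 2 in Rescue2, beside 12.8% and 11.1% of genes. HNF4G was at 0.49 and 0.21 (adjusted p = 0.260 and 0.69), and LHX1 at -0.75 and -0.29 (adjusted p = 0.499 and 0.83). Between Rescue1 and Rescue2 none of the 5 was called, with 0.994% of genes called, and 1 had an unadjusted p below 0.05. This was PAX2, higher in Rescue1 by 0.57 (SE 0.15, adjusted p = 0.081).

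The line labelled KO2 rescue differed from KO2, in the same serum, in PAX8, SALL1 and LHX1. PAX8 fell by 0.63 (SE 0.14, adjusted p = 0.0096) and SALL1 by 0.64 (SE 0.16, adjusted p = 0.017), both under the fold for a call. LHX1 rose by 2.55 (SE 0.70, adjusted p = 0.031) and was the 1 member called, beside 4.17% of genes. That call was lost without KO2 replicate 2, at 1.68, and without either of the libraries labelled KO2 rescue. PAX2 and HNF4G were at 0.03 and 0.06 (adjusted p = 0.95 and 0.96). The stroma and fibroblast markers summed to 39662 and 42154 here, between WT and KO2, and their part was not tested.

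The eGFP line of transduced WT cells, in 10% serum, held PAX8 between the levels of KO2 and KO1. With eGFP, PAX8 rose by 0.99 (SE 0.14, adjusted p = 1.1e-04) and SALL1 by 0.92 (SE 0.16, adjusted p = 4.9e-04) against WT in 2% serum. Neither reached the fold, so 0 of 5 members were called by limma, with 2 at an unadjusted p below 0.05, beside 12.7% of genes called. Without WT replicate 2 both were called, PAX8 at 1.34 and SALL1 at 1.18, and PAX8 also without eGFP replicate 1, at 1.03. Serum, the vector and its selection differ together between these groups and cannot be told apart. PAX2, HNF4G and LHX1 were at 0.27, -0.01 and 0.77 (adjusted p = 0.199, 1 and 0.476). The stroma and fibroblast markers summed to 2322 and 2633 in the eGFP libraries, most of it DCN, at 1485 and 1866. The part of these markers in the member differences was not tested.

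Ectopic SOX2, OCT2 or PRRX1 left no called difference in the members from eGFP. Each line had 0 of 5 members called, beside 0.0206%, 0.0343% and 0.0411% of genes. At an unadjusted p below 0.05 there was 1 member with SOX2 and 0 with OCT2 and PRRX1. That 1 was LHX1, at 6.62 and 1.88 against 19.5 and 22.6 normalized counts with eGFP (log2 change -2.23, SE 0.70, adjusted p = 0.52). PAX8 differed from eGFP by 0.07, 0.06 and -0.07 in the SOX2, OCT2 and PRRX1 lines (SE 0.14). SALL1 was at 0.14, 0.02 and -0.27 (SE 0.16), and PAX2 at 0.06, 0.16 and 0.0048 (SE 0.15).

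The genes most like each member were ranked by Pearson correlation of log2(normalized count + 1) over the 22 libraries among 8276 genes with a mean of at least 100 normalized counts. For SALL1 they were C3, a complement component (r = 0.962), CSGALNACT1, a chondroitin sulfate synthesis enzyme (0.945), and SAA2, an acute phase protein (0.941). For PAX8 they were EPB41L4B (0.948), HAS3, a hyaluronan synthase (0.939), and C15orf62 (0.935), and for PAX2 PAN2 (0.910), SYNE2 (0.896) and TBC1D8 (0.890). HNF4G was most like MYLK, a myosin light chain kinase, at a lower value (0.829), then HNRNPF (0.820) and NDE1 (0.817), and LHX1 most like SANBR (0.846), NEXN (0.836) and VCL (0.831). Among members, PAX8 and SALL1 were the most alike (0.787), PAX2 and SALL1 followed (0.709), and LHX1 ran opposite to SALL1 (-0.548). These values describe 22 libraries in 11 groups that share group means and depth.

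Other factors of the nephron lineage were drawn from a list of 34, of which 30 had a row and 23 passed the filter. With TGF-β 1 was higher and 2 were lower, and the median log2 change was -0.32 beside 0.00 for all genes, of which 7.84% were called. FOXC2, a forkhead factor of podocyte precursors, was at 146 and 126 against 62.0 and 44.5 in WT and rose by 1.35 (SE 0.28, adjusted p = 0.0033). ESRRG, an estrogen-related receptor of tubule metabolism, fell by 2.79 (adjusted p = 0.0041), and IRX3, an Iroquois factor, was listed at 0 in both TGF-β libraries against 48.4 and 94.4 in WT. FOXC2, ESRRG and IRX3 were also called without either WT library, with 2 higher and 2 lower in all without WT replicate 1 and 1 and 3 without WT replicate 2. SIM2, the most abundant of the list, was at 0.65, under the fold.

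In the KO clones the other factors moved in both directions. In KO1 4 were higher and 8 lower (median -0.60), and in KO2 2 were higher and 4 lower (median -0.34), where the median of all genes was 0.00 in both and 25.0% and 16.3% of genes were called. EYA1, a coactivator of nephron progenitors, was listed at 0 in WT and was at 41.8 and 37.7 in KO1 and 11.7 and 15.5 in KO2. OSR1, an early intermediate mesoderm factor, was at 19.2 and 19.1 in KO1 and listed at 0 in WT. IRX2 was at 2.44 and 0 in KO1 against 159 and 199 in WT. TFAP2B, a factor of the distal nephron, fell by 2.49 in KO2 (adjusted p = 0.011), and HOXA11, a patterning factor of the metanephric mesenchyme, rose by 1.41 there (adjusted p = 3.6e-04). Both KO2 calls were lost without WT replicate 2, at -2.31 and 0.97. Without WT replicate 1 the counts were 4 higher and 7 lower in KO1 and 3 and 4 in KO2, and without WT replicate 2 they were 3 and 7 and then 1 and 3.

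Of these other factors, as of all genes, more were called lower than higher in the rescue lines. Over all genes 1004 were higher and 1347 lower in Rescue1 against KO2, which is 16.1%, and 1000 and 1226 in Rescue2, which is 15.3%. Of the 23 factors, 1 was higher and 6 lower in Rescue1 and 2 higher and 9 lower in Rescue2, and against eGFP 1 and 6 and then 0 and 8 by limma, where 1 factor was higher in Rescue2 at an unadjusted p below 0.05, beside 12.8% and 11.1% of genes called. IRX2 was listed at 0 in both Rescue1 libraries and was at 6.66 and 0 in Rescue2, against 186 and 187 with eGFP. SIM1 was at 33.7 and 29.4 in Rescue2 against 701 and 716 with eGFP (log2 change -4.45, SE 0.14, adjusted p = 2.0e-11). EYA1 was listed at 0 in Rescue1, and FOXC2 rose by 2.21 there against KO2 (SE 0.28, adjusted p = 2.7e-05). In eGFP against WT 0 of 23 were called by limma, with 8 higher and 0 lower at an unadjusted p below 0.05, and 2 were called higher without WT replicate 1. Against eGFP 0 of 23 were called in each of the SOX2, OCT2 and PRRX1 lines, with 3, 2 and 0 at an unadjusted p below 0.05.

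**Figure D4:**
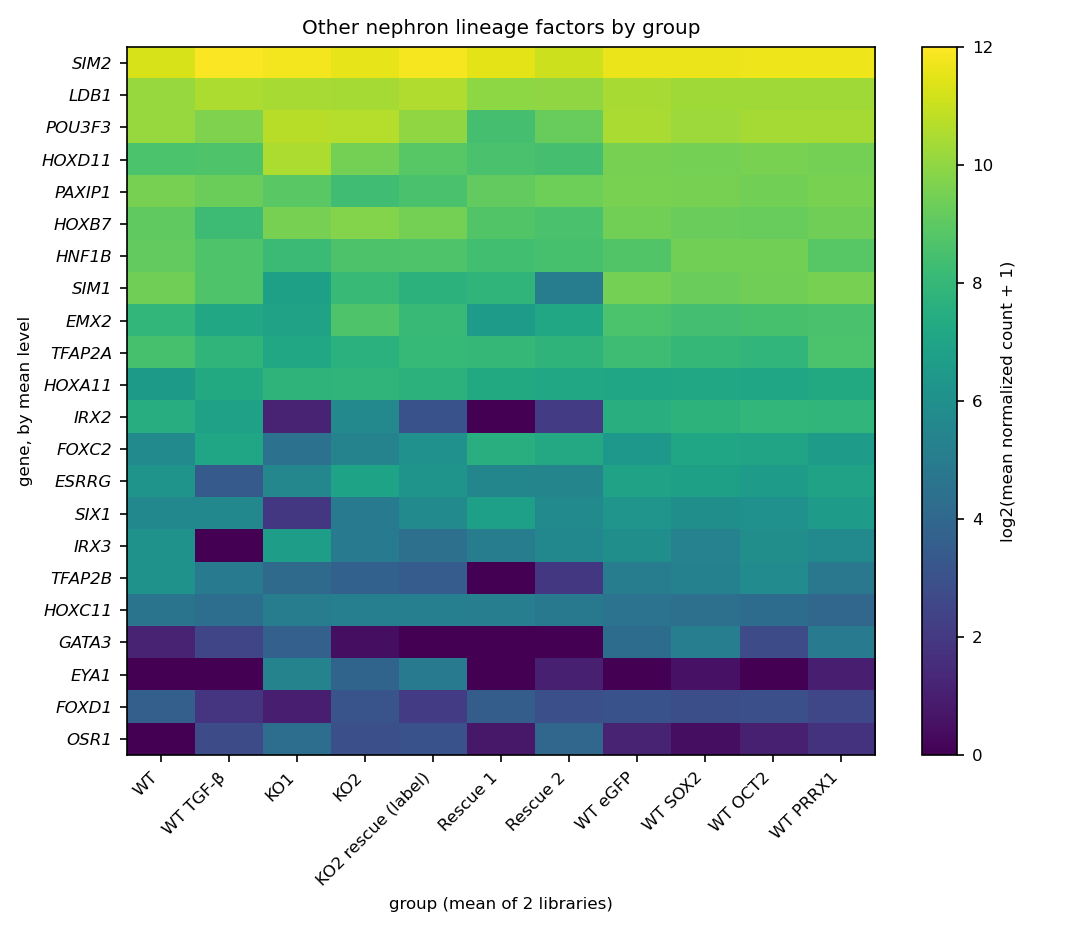
Level of 22 of the 23 other nephron lineage factors by group as log2(mean normalized count + 1) over 2 libraries (color scale from 0 to 12), rows ordered by mean level. IRX3 is darkest with TGF-β, and EYA1 is brightest in KO1, KO2 and the line labelled KO2 rescue.

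Genes associated with HNF4 factors in proximal tubule mostly fell below the filter on low values. Of 28 listed, 27 had a row and 8 passed the filter, and the transporters SLC22A6, SLC22A8, SLC22A12 and SLC6A19 were listed at 0 in every library. Among the 8, KO1 had 4 higher and 4 lower and KO2 4 and 2, and TGF-β had 1 and 2, beside 25.0%, 16.3% and 7.84% of all genes called. Without WT replicate 2 the counts were 3 and 3, 3 and 2, and 0 and 2, and without WT replicate 1 they did not change. SLC17A1 and SLC17A3, phosphate and urate transporters, were at 192 to 309 in WT and 1.41 to 3.76 with TGF-β. Both were called lower in the KO clones too. In KO1 SLC17A1 was listed at 0 in both libraries and SLC17A3 was at 4.83 and 0. In KO2 their log2 changes were -3.25 and -3.24 (adjusted p = 1.1e-04 and 0.0034 by limma). SLC13A3, a dicarboxylate transporter, rose to 187 and 233 in KO1 and 186 and 189 in KO2 from 20.6 and 2.99 in WT (log2 changes of 4.50 and 4.35, adjusted p = 1.9e-04 and 3.8e-04). The wide WT pair moved these to 5.72 and 5.57 without WT replicate 1 and to 3.28 and 3.13 without WT replicate 2, all called. Rescue1 had 4 lower than KO2 and Rescue2 3, and 0 were higher in either, also at an unadjusted p below 0.05 by limma. These include SLC7A7, an amino acid transporter, at 31.5 and 12.1 in Rescue1 and 15.9 and 20.7 in Rescue2 against 312 and 171 in KO2.

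All 14 genes of a list tied to PAX2 and PAX8 in epithelium passed the filter, and 0 were called higher by limma in either KO clone, with 0 higher in KO1 and 1 in KO2 at an unadjusted p below 0.05. In KO1 6 were lower and in KO2 4, with a median of -0.93 and -0.48, beside 25.0% and 16.3% of all genes called. Without WT replicate 1 KO2 had 2 higher and 3 lower, one of them CDH6 at 1.38, and KO1 had 7 lower, or 8 without WT replicate 2. EPCAM, an epithelial adhesion protein, was at log2 changes of -3.51 and -1.74 in KO1 and KO2 (SE 0.12). MUC1, a transmembrane mucin, was at 1.57 and 2.20 in KO1 against 493 and 595 in WT. PKHD1, the fibrocystin of tubule cilia, was at -6.53 and -3.26 (SE 0.49). In eGFP against WT 1 of the 14 was called higher and 3 lower, beside 12.7% of genes, counts that moved without either WT library. EPCAM was at 1032 and 1031 with eGFP (log2 change -1.49) and MUC1 at 85.1 and 62.4 (-2.88), both called. PKHD1 was at 0.13 there and not called. A fall of EPCAM and MUC1 from WT was thus not particular to the KO clones. With TGF-β 2 were higher and 2 lower, CDH6, a cadherin of renal tubule, rising by 2.59 and SPP1, osteopontin, falling by 1.03, beside 7.84% of genes. CDH6 was at 503 and 150 in WT, so dropping replicate 1 gave it 3.46 and dropping replicate 2 gave 1.72, still called, whereas SPP1 lost its call in the latter case, at -0.99. Of 7 tested genes tied to WT1, 1 was higher and 3 lower in KO1, 1 and 1 in KO2, and 1 and 0 with TGF-β, the last being PODXL, a sialomucin of podocytes, at 170 and 163 against 41.8 and 36.9 in WT. The PODXL call was lost without either WT library (adjusted p = 0.087 and 0.147), and KO1 had 1 higher and 2 lower without WT replicate 1 and 0 and 2 without WT replicate 2.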

How the data were processed

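The 22 RNA-seq libraries of RPTEC were grouped by their labels into 11 groups. Per the labels, libraries were made with a stranded mRNA kit. The authors quantified reads with Salmon 1.9.0 on the Ensembl release 94 cDNA (GRCh38/hg38), used DESeq2 1.26.0, and deposited 1 table of log2 values whose transformation is not named in the sources used here. All libraries share 11.32 as their lowest value, the form of variance-stabilized counts, and inverting that transformation gave the normalized counts used here. Limma 3.58.1 (R 4.3.3, variance trend) was run on log2(normalized count + 1), all libraries in 1 fit, with Benjamini-Hochberg adjustment over 14585 genes for each of 16 comparisons, after a check on simulated data. The plan had assumed linear values. All 7 members are named, with at most 4 genes of each list per comparison (called, non-overlapping, largest change, then highest level), and the 3 genes most like a member. Members and lists were chosen with earlier results of these data known. Alternatives were pseudocounts of 0.5 and 5, other filters, a common total, quantile normalization, only the compared groups, the deposited scale, a replicate block, KO1 as rescue parent, and each library left out. The lists without each WT library were added after seeing the data. Same-numbered replicates did not deviate together (correlations -0.082 to 0.047 over 55 pairs of groups). Positions are from GENCODE 44. Figures were drawn with matplotlib 3.10.9. The values of 2 list genes are not reported here, though the list counts include them.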

Additional observations from a re-analysis of the deposited data

How the results depend on the processing

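Of 1034 values of the 5 tested members under an alternative, 966 kept their direction and their side of the call, 25 lost a call, 21 gained one and 22 changed direction. The pseudocount of 5, the deposited log2 scale and the replicate block (for example SALL1 at -1.03 with TGF-β) changed no call. Same-numbered libraries of different groups shared only a number, so the block says nothing of a paired design. The number of called members moved to 4 with TGF-β, to 0 in KO2 against WT and to 2 in Rescue1 against KO2 when every library had the same total. It moved to 2 in KO2 against WT and in Rescue1 against KO2 with quantile normalization, and to 3 in Rescue1 with KO1 as its parent. Only the libraries of the groups compared gave 0 with TGF-β, in KO2 against WT and in the labelled KO2 rescue against KO2, and 1 in Rescue2 against KO2 and 2 in KO1 against WT. A pseudocount of 0.5 gave 1 in KO1 against KO2. Without a filter, and with a minimum of 50 normalized counts, under which LHX1 was not tested, the labelled KO2 rescue had 0 and Rescue2 against KO2 had 1. KO1 against WT kept 2 or 3 throughout and KO1 and KO2 against TGF-β kept 2 or 3. Leaving out 1 library gave 0 to 3 with TGF-β, 0 to 2 in KO2 against WT and eGFP against WT, 0 to 1 in KO1 against KO2 and in the labelled KO2 rescue, and 1 to 2 in both rescue lines against KO2. Directions that turned belonged to uncalled members. With the same total they were HNF4G in KO1 against TGF-β (-0.0078), PAX2 and PAX8 in Rescue1 against KO2 (0.060 and 0.0026) and PAX8 in Rescue2 against KO2 (0.173, and 0.0057 with quantile normalization). With 1 library left out HNF4G ran from -0.438 to 0.189 in KO2 against WT, -0.321 to 0.307 in eGFP against WT, -0.126 to 0.450 in KO1 against TGF-β, -0.0816 to 0.201 in the labelled KO2 rescue and -0.0048 to 0.419 in Rescue2 against eGFP. PAX2 ran from -0.137 to 0.0646 in KO1 against KO2, -0.0996 to 0.166 in the labelled KO2 rescue, -0.0322 to 0.151 with SOX2 and -0.101 to 0.111 with PRRX1. SALL1 ran from -0.0491 to 0.0932 with OCT2 and -0.248 to 0.106 in Rescue1 against Rescue2, and LHX1 from -0.938 to 0.0346 in the latter. The cause was not tested. Depth limits LHX1, at no more than about 25 approximate reads in any library, and leaves HNF4A and WT1 untested.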
